A study of Saccharomyces cerevisiae with 8 samples.

Results

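The 10 genes described here are the cyclins and G1/S regulators *CLN1*, *CLN2*, *CLN3*, *CLB1*, *CLB2*, *CLB5*, *CLB6*, *PCL1*, *SWI4* and *SIC1*, of 6002 nuclear protein-coding genes of *Saccharomyces cerevisiae*. They were chosen by name. For each, the region from 1500 bp upstream of the coding start to 100 bp into the gene was searched for peaks of chromatin accessibility in 8 peak lists. The assay was ATAC-seq, which reads out open DNA by the insertion of a transposase. The 4 strains came from BY4741, a laboratory strain with deletions in *HIS3*, *LEU2*, *MET15* and *URA3* (his3Δ1 leu2Δ0 met15Δ0 ura3Δ0), and each gave 2 libraries, from independent clones. They carried a synthetic human *HPRT1* locus, or *HPRT1R*, its reversed sequence, either as an episome on a centromeric *LEU2* vector (SC-Leu medium) or integrated at YKL162C-A on chromosome XI (YPD medium), so that context and medium changed together and cannot be told apart. All cultures were in log phase with no synchronisation stated, so a library mixes stages of the cycle, and the study's interest in the synthetic locus is not addressed here.

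Cyclins bind and switch on a cyclin-dependent kinase, Cdc28 (Cdk1) or, for Pcl1, Pho85. In G1, Cln3 starts a cascade in which the transcription factor SBF (Swi4 with Swi6) and its relative MBF (Mbp1 with Swi6) turn on *CLN1*, *CLN2*, *PCL1*, *CLB5* and *CLB6*. Sic1 holds the S-phase cyclins Clb5 and Clb6 inactive until the Cln kinases mark it for destruction. Clb1 and Clb2 drive mitosis, and their genes are turned on by Mcm1 with the forkhead factor Fkh2. SBF is known to bind a word called SCB and MBF one called MCB.

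The reference sequences around the median summits show stretches under the peaks of the genes with several such words. A summit is where a peak is highest. They are given in the direction of each gene from RefSeq, build R64 (sacCer3). Capitals in the first 5 mark SCB (CACGAAA or CGCGAAA), MCB (ACGCGT), the forkhead word (GTAAACAA or GTCAACAA) and the Mcm1 core, on either strand. This core is CC and GG with any 6 bases between them. In *CLB6* the capitals mark a tRNA-Cys gene. The *CLN1* window leaves out that gene's summits 487 to 551 bp upstream of the coding start and the one 929 bp upstream. Also outside their windows are the *CLN3* summit 796 bp upstream, the *PCL1* summit 427 bp upstream and the *CLB2* summit 635 bp upstream.
*CLN3* chrI:68421-68560 (-): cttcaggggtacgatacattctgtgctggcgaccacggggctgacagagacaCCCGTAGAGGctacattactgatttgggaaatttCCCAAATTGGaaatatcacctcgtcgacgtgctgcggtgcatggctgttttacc
*CLN1* chrXIII:661810-662059 (+): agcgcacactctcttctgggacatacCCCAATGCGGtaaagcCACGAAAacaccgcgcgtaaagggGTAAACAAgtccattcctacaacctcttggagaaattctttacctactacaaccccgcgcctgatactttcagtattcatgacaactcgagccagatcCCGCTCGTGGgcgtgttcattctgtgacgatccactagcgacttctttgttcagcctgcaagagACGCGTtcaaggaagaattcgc
*CLN2* chrXVI:67002-67201 (-): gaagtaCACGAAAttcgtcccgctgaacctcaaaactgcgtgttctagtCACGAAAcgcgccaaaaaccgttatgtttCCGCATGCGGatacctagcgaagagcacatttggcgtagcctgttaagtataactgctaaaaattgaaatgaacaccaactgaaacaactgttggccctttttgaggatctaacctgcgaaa
*PCL1* chrXIV:87491-87690 (+): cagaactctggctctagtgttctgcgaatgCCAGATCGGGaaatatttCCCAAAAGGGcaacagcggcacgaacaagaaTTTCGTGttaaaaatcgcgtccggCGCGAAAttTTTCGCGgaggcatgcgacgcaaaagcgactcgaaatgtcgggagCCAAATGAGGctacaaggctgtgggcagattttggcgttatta
*CLB2* chrXVI:770812-771011 (+): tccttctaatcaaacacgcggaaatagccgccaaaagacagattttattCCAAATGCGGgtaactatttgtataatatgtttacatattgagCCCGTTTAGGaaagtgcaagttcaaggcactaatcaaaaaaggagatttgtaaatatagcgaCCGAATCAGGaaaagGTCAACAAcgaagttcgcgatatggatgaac
*CLB6* chrVII:707058-707257 (-): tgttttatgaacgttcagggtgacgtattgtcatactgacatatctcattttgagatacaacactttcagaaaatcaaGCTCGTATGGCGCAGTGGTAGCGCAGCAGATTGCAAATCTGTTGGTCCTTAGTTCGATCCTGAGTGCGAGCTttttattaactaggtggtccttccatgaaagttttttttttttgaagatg

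The 8 lists held 1029 to 1337 peaks. The fold enrichment at a summit is the ratio of the fragments there to a background expected in the same library, each with 1 added. Both were recovered from the deposited ratio and p-value for 99.3% to 99.6% of peaks, and these fragment counts were not checked against reads. Read totals were not in the lists, so depth was known only as the genome-wide background, 4.97 to 6.93 fragments. A site at that background needed 13 to 16 fragments, a fold of 2.14 to 2.34, to be called. A missing peak therefore means that accessibility was not detectable at this depth. The background was lowest, 4.97 and 5.42, in the *HPRT1R* integrated libraries and highest, 6.93, in *HPRT1* episome 2. No library had a peak in the coding sequences of *URA3*, *MET15* or *HIS3*. Peaks in *LEU2* were found in 4 libraries, all 4 of them episomal, whose vector carries that gene.

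A peak was present upstream of 9 of the 10 genes. *CLN3*, *CLN1* and *PCL1* had one in all 8 libraries, against 14.9% of all genes. The 9 genes had a peak in at least 5 libraries, against 25.7% of all genes for that limit and 45.3% for a peak in at least 1 library. The 10 genes have long upstream stretches, with a median of 1154 bp to the next protein-coding gene, compared with 448 bp for all genes. Among the 2625 genes with at least 500 bp free upstream, 24.1% had a peak in all 8 libraries and 38.6% in at least 5. Of the 9 cell cycle genes with such a stretch, 3 had one in all 8 and 9 in at least 5. *SIC1* was the gene without a peak, and also the one with the shortest stretch.

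**Figure D1:**
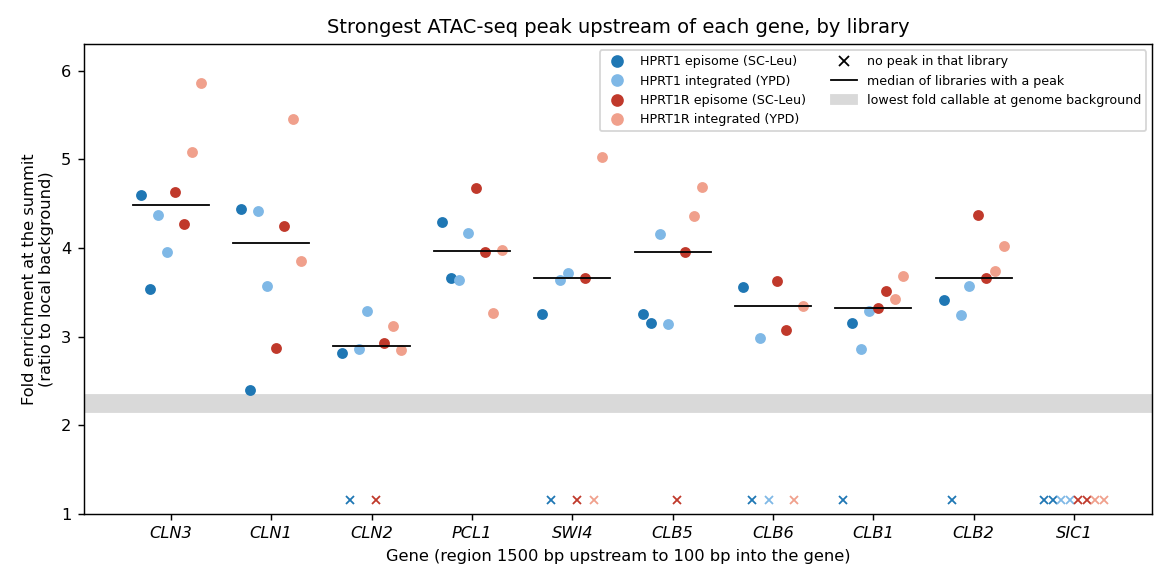
Fold enrichment at the summit (vertical axis, ratio to local background) of the strongest peak of each gene in each of the 8 libraries, coloured by strain. Crosses mark libraries without a peak, black lines the median of the libraries with one, and the grey band the lowest fold callable at the genome background. *CLN3* lies highest with a median of 4.48, *CLN2* lowest with 2.90, and *SIC1* has 8 crosses.

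The most upstream cyclin, *CLN3* (YAL040C, chromosome I, reverse strand, 65778 to 67520), had the highest level of the 10. Its fold enrichment was 4.60 and 3.54 in the *HPRT1* episome clones, 4.37 and 3.95 with *HPRT1* integrated, 4.63 and 4.27 in the *HPRT1R* episome clones, and 5.08 and 5.86 with *HPRT1R* integrated. The 2 highest values were thus those with *HPRT1R* integrated, where the local background of this peak was 6.28 and 7.19 fragments, within the 5.91 to 8.39 of the 8 libraries. The mean was 4.54 ± 0.708 (SD, n = 8), and its log2 mean exceeded those of 88.8% of the 2718 genes with a peak. Of these 2718 genes, 895 had a peak in all 8 libraries, as *CLN3* did, and 511 in only 1. The peak was far from the gene: the summit lay 918 to 925 bp upstream of the coding start in 7 libraries, an interval of a few bases, and 796 bp upstream in *HPRT1* episome 2. The peaks were wide, 441 to 1085 bp, and their summits were intergenic, before the end of *CYC3*, a gene on the same strand that ends 1195 bp upstream. The recovered pileup was 29 to 47 fragments. It was 36 and 47 with *HPRT1R* integrated, and 40 in *HPRT1* integrated 1, where the local background was 8.39. By pileup the *HPRT1R* integrated libraries were thus not both above the rest. The printed window holds 2 Mcm1 cores, and the 301 bp around the median summit hold 4. Mcm1 is known to act on *CLN3* at the M/G1 boundary, but this loose word was found around 51.5% of the 2717 summits examined.

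*CLN1* (YMR199W, chromosome XIII, forward strand, 662644 to 664284) encodes a G1 cyclin that works with Cdc28 at Start, the commitment to divide. Its fold enrichment was 4.44 and 2.39 in the *HPRT1* episome clones, 4.42 and 3.57 with *HPRT1* integrated, 2.87 and 4.25 in the *HPRT1R* episome clones, and 5.45 and 3.85 with *HPRT1R* integrated. Clones of one strain differed here as much as strains did, and the SD of the log2 values, 0.38, was the widest of the 9 genes. The summits fell at 2 places within 1 wide intergenic stretch. They lay 487 to 551 bp upstream of the coding start in 4 libraries and 776 to 929 bp upstream in the other 4. Both places occurred in episomal and integrated libraries. An SCB word at −792 to −786 lay within 50 bp of 3 of the 4 distal summits, and an MCB word at −606 to −601 stood between both places. The single narrow peak, 189 bp wide, was that of *HPRT1* episome 2. The upstream neighbour *CIK1*, a gene of the spindle, ends 1114 bp from the *CLN1* start.

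Its paralog *CLN2* (YPL256C, chromosome XVI, reverse strand, 64977 to 66614), also a G1 cyclin, had weaker peaks in fewer libraries. The fold was 2.81 in *HPRT1* episome 1, 2.86 and 3.29 with *HPRT1* integrated, 2.93 in *HPRT1R* episome 2, and 3.12 and 2.85 with *HPRT1R* integrated. *HPRT1* episome 2 and *HPRT1R* episome 1 had no peak, which left 2 episomal and 4 integrated libraries. The same set of libraries was found for 14 other genes. The 6 pileups were 16 to 22 fragments, where a site at the genome background needed 13 to 16. In the 6 libraries with both, *CLN1* was higher than *CLN2* in 6, by a log2 difference of 0.53 ± 0.237 (SD, n = 6). The summits lay 461 to 560 bp upstream, between *CLN2* and the divergent *BBP1*, and SCB words at −606, −581 and −538 lay around the distal end of that range. The nearest was 15 to 71 bp from the summit, and the 2 nearest the gene among these words are in the printed sequence.

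*PCL1* (YNL289W, chromosome XIV, forward strand, 87897 to 88736) encodes the G1 cyclin of the Pho85 kinase. Its fold enrichment was 4.30 and 3.66 in the *HPRT1* episome clones, 3.64 and 4.17 with *HPRT1* integrated, 4.68 and 3.96 in the *HPRT1R* episome clones, and 3.27 and 3.98 with *HPRT1R* integrated. The 8 values spanned a narrower range than those of *CLN1*. They had a mean of 3.96 ± 0.438 (SD, n = 8). The summits lay 236 to 427 bp upstream, the nearest to a coding start among the 9 genes. The 3 SCB words at −327, −303 and −294 stood in the middle of that range, and 5 of 8 summits were within 50 bp of one. The upstream neighbour *RFC3*, on the same strand, ends 656 bp from the start. In the printed window 2 of the words appear as their reverse complement.

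*SWI4* (YER111C, chromosome V, reverse strand, 382595 to 385876) encodes the DNA-binding subunit of SBF. Its region had a peak in 5 libraries, with a fold of 3.26 in *HPRT1* episome 1, 3.64 and 3.72 with *HPRT1* integrated, 3.66 in *HPRT1R* episome 2 and 5.02 in *HPRT1R* integrated 2. The last of these stood above the other 4, which were close together. The peak was the most distant of the set, 1089 to 1169 bp from the *SWI4* start. It lay 187 to 267 bp from the start of *LSM4*, the divergent neighbour that encodes an RNA-processing protein, so the lists do not tell which gene the peak belongs to. The peaks were 145 to 168 bp wide, and in 3 libraries both ends were the same base (386948 to 387096). An SCB word at −1201 to −1195 was 26 to 106 bp from the summits, while SCB and MCB words at −490 and −508, nearer to *SWI4*, were not under any summit.

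The S-phase cyclin gene *CLB5* (YPR120C, chromosome XVI, reverse strand, 773875 to 775182) had a fold of 3.26 and 3.15 in the *HPRT1* episome clones, 4.16 and 3.15 with *HPRT1* integrated, 3.96 in *HPRT1R* episome 2, and 4.36 and 4.69 with *HPRT1R* integrated. *HPRT1R* episome 1 had no peak, a pattern shared by 38 other genes. The summits were the most tightly placed of the 9 genes (SD 13.9 bp), 346 to 383 bp upstream in all 7 libraries. A tRNA-Cys gene lies at −654 to −583. The peaks reached over it in 5 libraries, but none had its summit inside. No SCB or MCB word, in the exact forms given above, was found in the 1600 bp. The shorter ACGCG, which the sequence around the median summit does hold, was not counted. The next protein-coding gene upstream, *THI22*, is 3400 bp away.

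*CLB6* (YGR109C, chromosome VII, reverse strand, 705359 to 706501), the other S-phase cyclin gene, also has a tRNA-Cys gene upstream, at −678 to −607, just before a Ty3 transposon whose first open reading frame, *YGR109W-A*, starts 1108 bp away. Its fold was 3.56 in *HPRT1* episome 1, 2.99 in *HPRT1* integrated 1, 3.62 and 3.08 in the *HPRT1R* episome clones, and 3.35 in *HPRT1R* integrated 2. The other 3 libraries had no peak, the same set as for 2 other genes. In 4 of the 5 libraries the summit was at −656 or −657, inside the tRNA gene, the part in capitals above, and in *HPRT1R* integrated 2 it was at −591. Of the MCB words at −403 and −377, the nearer was 188 to 254 bp from the summits. In the 4 libraries with both, *CLB5* was higher than *CLB6* in 3, by 0.30 ± 0.289 on the log2 scale (SD, n = 4), a difference about as large as its spread.

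The mitotic cyclin gene *CLB1* (YGR108W, chromosome VII, forward strand, 703636 to 705051) had a fold of 3.15 in *HPRT1* episome 2, 2.86 and 3.29 with *HPRT1* integrated, 3.32 and 3.52 in the *HPRT1R* episome clones, and 3.43 and 3.68 with *HPRT1R* integrated. *HPRT1* episome 1 had no peak, as for 48 other genes. All 4 *HPRT1R* values lay above all 3 *HPRT1* values, as in 7.57% of the 1255 regions compared in this way, with the reverse in 0.239%. The pileups overlapped, with 21 to 23 fragments in the *HPRT1R* and 21 to 24 in the *HPRT1* libraries. The local background was 4.97 to 5.82 fragments in the *HPRT1R* and 6.00 to 6.93 in the *HPRT1* libraries. The summits lay 660 to 814 bp upstream, and a forkhead word at −629 was within 50 bp of 3 of the 7. The gene lies tail to tail with *CLB6*, so that their upstream regions are on opposite sides, and the next gene upstream, *VOA1*, is 3849 bp away.

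*CLB2* (YPR119W, chromosome XVI, forward strand, 771653 to 773128), the main mitotic cyclin gene, had a fold of 3.41 in *HPRT1* episome 1, 3.25 and 3.57 with *HPRT1* integrated, 4.38 and 3.66 in the *HPRT1R* episome clones, and 3.74 and 4.02 with *HPRT1R* integrated. *HPRT1* episome 2 had no peak, as for 66 other genes. The *HPRT1R* values lay above the *HPRT1* values here too, as in the same 7.57% of regions. Here also the pileups overlapped, with 23 to 28 fragments in the *HPRT1R* and 22 to 24 in the *HPRT1* libraries. The summits lay 635 to 760 bp upstream, close to a forkhead word at −672 that was within 50 bp of 3 of 7. The gene lies tail to tail with *CLB5*, and *MRI1* is 2665 bp upstream. *CLB2* was higher than *CLB1* in all 6 libraries with both, by a log2 difference of 0.17 ± 0.119 (SD, n = 6; the mean of *CLB1* minus *CLB2* was −0.17).

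*SIC1* (YLR079W, chromosome XII, forward strand, 286820 to 287674) encodes the inhibitor of the Clb kinases. It had no peak in any of the 8 libraries, and the nearest summit on the chromosome was 2963 to 33510 bp from its start. Its upstream stretch to the divergent *BOS1*, a gene of vesicle transport, is 260 bp, shorter than those of most genes. An SCB word ends at −1.

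**Figure D2:**
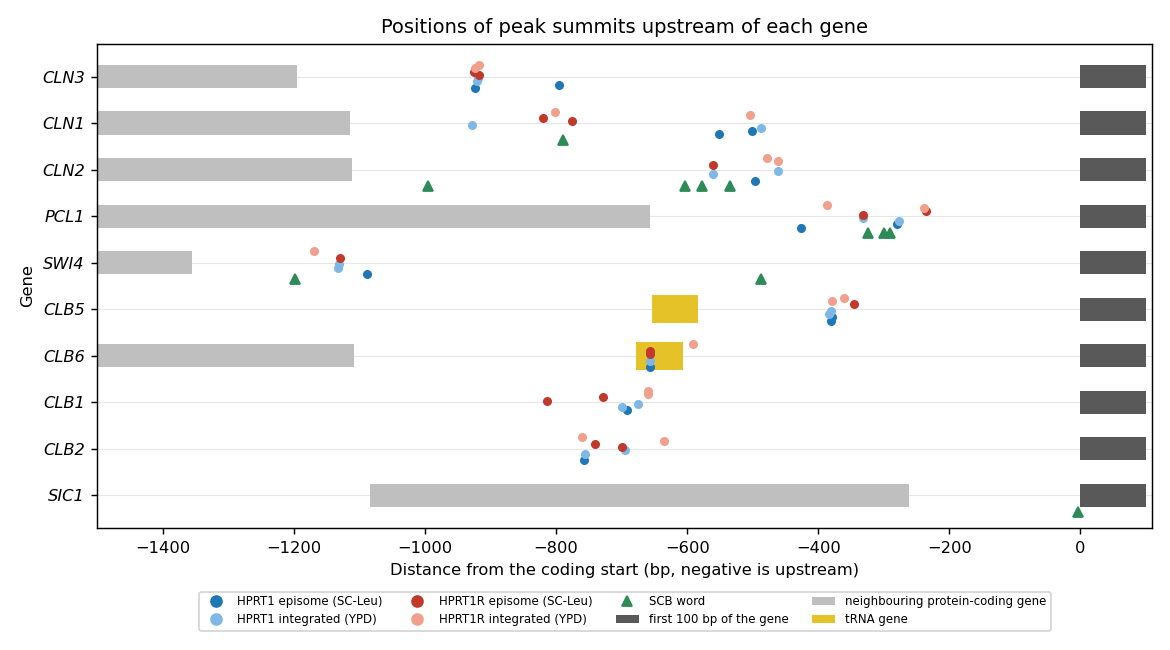
Position of each summit relative to the coding start (horizontal axis, bp, negative upstream), one point per peak, coloured by strain. Light grey bars are neighbouring protein-coding genes, dark bars the first 100 bp of each gene, yellow bars tRNA genes and triangles SCB words. Most summits of *CLN3* (7 of 8), *SWI4* (5 of 5), *CLB5* (7 of 7), *CLB6* (4 of 5), *CLB1* (6 of 7) and *CLB2* (6 of 7) lie within 50 bp of their median. So do 4 of 6 for *CLN2* and 4 of 8 for *PCL1*, while those of *CLN1* fall at 2 places.

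Ordered by mean log2 fold enrichment over the libraries with a peak, the genes were *CLN3* (2.17), *PCL1* (1.98), *SWI4* (1.93), *CLN1* (1.92), *CLB5* (1.92), *CLB2* (1.89), *CLB1* (1.73), *CLB6* (1.73) and *CLN2* (1.57). Only the steps from *CLB2* to *CLB1* (0.16) and from *CLB6* to *CLN2* (0.16) were larger than the SDs of both neighbours. Because libraries without a peak give no value, the means of genes with missing peaks rest on the libraries in which the peak was called. The median fold of the 9 genes was 3.77, compared with 3.34 for all 2718 genes with a peak, whose 10th to 90th percentiles were 2.65 to 4.56. These sets are unlike: all 9 had a peak in at least 5 libraries, as 1543 of the 2718 did. The peaks were far out: 7 of 9 median summits (77.8%) lay beyond 400 bp, against 50.2% of the 2718 genes. The 10 genes also have longer upstream stretches (median 1154 bp, against 448 bp for all genes), and these shares were not matched for that.

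**Figure D3:**
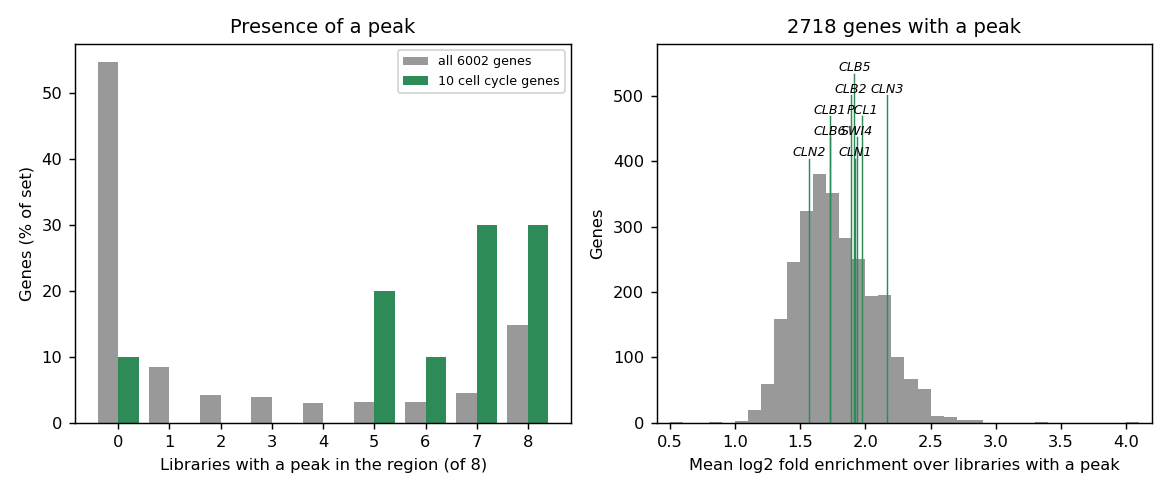
Left, the share of genes (vertical axis, %) by the number of libraries with a peak, for all 6002 genes in grey and the 10 genes in green. Right, mean log2 fold enrichment of the 2718 genes with a peak (grey bars, number of genes), with the 9 genes marked by green lines. The 9 lie between 1.57 and 2.17, within the bulk of the distribution.

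The words searched were read against the summits of all genes with a peak. A word counted as near when it lay whole within the 301 bp around the median summit. SCB was near it in 4 of the 9 genes (*CLN1*, whose median falls between its 2 summit places, *CLN2*, *PCL1* and *SWI4*), and around 9.27% of 2717 summits. In the whole 1600-bp regions it was found in 5 of 10, against 26.3% of 5996 regions of that length. The forkhead word was near the summits of *CLN1*, *CLB1* and *CLB2*, and near 3.97% of all. MCB was near the *CLN1* summit alone, and near 4.6% of all. TATA words (TATAAA or TATATA) were near none of the 9 median summits and near 39.5% of all. A word of *PCL1* at −160 to −155 crossed the edge of that window, and all 10 regions held one, as 5698 of 5996 regions did. A match describes letters and says nothing of binding.

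The number of the 10 genes with a peak was 8 and 5 in the *HPRT1* episome clones, 9 and 8 with *HPRT1* integrated, 6 and 9 in the *HPRT1R* episome clones, and 7 and 9 with *HPRT1R* integrated. The ranges of the episomal libraries (7.0 ± 1.83, SD, n = 4) and the integrated libraries (8.25 ± 0.957, SD, n = 4) overlapped. *HPRT1* episome 2 had the fewest: it lacked *CLN2*, *SWI4*, *CLB6*, *CLB2* and *SIC1*. Of all genes it had a peak at 26.8%, within the 25.8% to 32.8% of the 8 libraries. Its genome-wide background was the highest of the 8, 6.93 fragments. The median fold of its nuclear peaks was the lowest, 3.15, where the 8 libraries ranged up to 4.02. Whether its missing peaks go with these values was not tested. None of the 10 split cleanly by context, with peaks in 4 of 4 libraries on 1 side and 0 of 4 on the other, a pattern of 0.117% of all genes.

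Whether the levels differed with the context was tested with limma on log2 fold enrichment over the 895 regions with a peak in all 8 libraries, with Benjamini-Hochberg adjustment. None of *CLN3*, *CLN1* and *PCL1* passed. In all, 4 of 895 regions (0.447%) did, all higher with the locus integrated. The difference, integrated minus episomal, was 0.17 for *CLN3* (95% interval −0.12 to 0.45, adjusted p = 0.544 by limma), 0.34 for *CLN1* (−0.01 to 0.69, adjusted p = 0.306 by limma) and −0.14 for *PCL1* (−0.42 to 0.15, adjusted p = 0.636 by limma). All regions together were shifted by a median of 0.13, so relative to it the differences were 0.03, 0.20 and −0.27. The 3 regions with the smallest p were those of *KCC4* and *AGP1*, which share one peak (0.71, adjusted p = 0.00982 by limma), and *GSY1* (0.64, adjusted p = 0.0114 by limma).

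Between *HPRT1R* and *HPRT1* strains no region passed (0.0% of 895), with 182 at an unadjusted p under 0.05 and a median shift of 0.16. The difference, *HPRT1R* minus *HPRT1*, was 0.27 for *CLN3* (−0.02 to 0.55, adjusted p = 0.271 by limma), 0.15 for *CLN1* (−0.20 to 0.50, adjusted p = 0.607 by limma) and 0.00 for *PCL1* (−0.28 to 0.29, adjusted p = 0.983 by limma). The 3 smallest p-values were those of *YLR256W-A*, *YAP6* and *OST5* (adjusted p = 0.112, 0.135 and 0.135 by limma). The difference of the context effect between the loci was not past the threshold for *CLN3*, *CLN1* or *PCL1* (interaction 0.25, 0.11 and −0.23, adjusted p = 0.888, 0.948 and 0.888 by limma).

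A second fit, chosen after the data were seen, needed a peak in only 3 of the 4 libraries of either context. It covered 1255 regions and added *CLB5*, *CLB1* and *CLB2*. None of the 6 genes passed for the context (0.239% of regions did) or for the locus (0.0%). The largest locus difference was that of *CLB5*, 0.32 (0.00 to 0.63, adjusted p = 0.267 by limma). For *CLB1* and *CLB2*, whose *HPRT1R* and *HPRT1* values did not overlap, it was 0.17 and 0.20 (adjusted p = 0.553 and 0.477 by limma). Such separation with *HPRT1R* higher was seen in 7.57% of the regions and with *HPRT1R* lower in 0.239%. For the context none of the 6 genes separated, where 7.57% of the regions did with integrated higher and 0.478% with integrated lower.

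**Figure D4:**
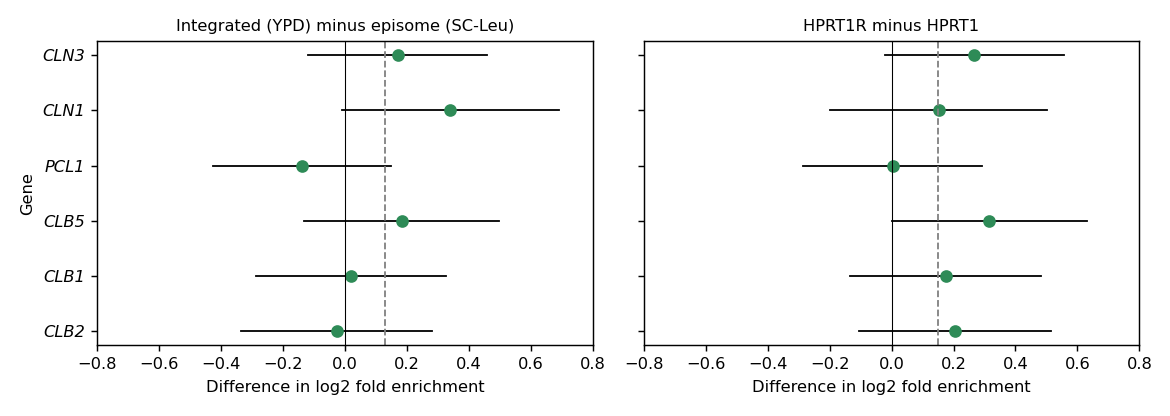
Differences in log2 fold enrichment (horizontal axis) between contexts (left) and between loci (right) for the 6 genes with a peak in at least 3 of 4 libraries of each context. Points are limma estimates, bars 95% intervals and dashed lines the median of all 1255 regions. Every interval on the left includes 0, and that of *CLB5* on the right starts at 0.00.

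Other cell cycle genes were read in the same way, from 5 lists. A peak in all 8 libraries was found for 3 of 15 other cyclins, 2 of 19 genes of G1/S transcription and kinase control, 7 of 31 SBF and MBF targets, 3 of 19 genes of the *CLB2* cluster and 7 of 24 M/G1 genes. Such a peak was found for 14.9% of all genes and 24.1% of those with at least 500 bp free upstream. Their median folds were 3.27, 3.23, 3.63, 3.28 and 3.58 in that order, beside 3.34 for all genes with a peak. None of those tested passed for the context. The highest levels with a peak in every library were those of *PCL5* (5.49 ± 1.03), *CTK2* (4.72 ± 0.842) and *PCL7* (3.82 ± 0.476) among the cyclins, and of *XBP1* (4.04 ± 0.637) and *SWE1*, the kinase that inhibits Cdc28 (3.32 ± 0.543), in the second list. Among the targets they included *OCH1* (5.43 ± 0.914) and *FKS1*, the glucan synthase (4.61 ± 0.819). In the *CLB2* cluster they were *CDC5*, the polo kinase (4.43 ± 0.813), *MCM1* (4.30 ± 0.779) and *HST3* (3.96 ± 0.788). In the last list they were the helicase genes *MCM3* (5.63 ± 0.994), *MCM6* (4.003 ± 0.548) and *MCM7* (3.99 ± 0.734). All are SD, n = 8. The median peaks of *OCH1* and *MCM3* have their summits beyond the region, at −1508 and −1556. Those of *PCL5* (−664), *PCL7* (−1376) and *CDC5* (−676) lie past the stretch to the next protein-coding gene, which is 623, 632 and 210 bp. Which gene these peaks belong to cannot be told from the lists.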

How the data were processed

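ATAC-seq peak lists of 8 yeast libraries were used, 4 strains with 2 clones each, grouped as labelled. The authors aligned 36-bp paired-end reads with Bowtie2 2.2.9 to sacCer3 with the synthetic locus added, and called peaks with MACS2 2.1.0 on whole fragments, per library, without a control and at a q of 0.05. For every peak the deposited lists hold the summit's enrichment (a ratio), with its −log10 p-value and −log10 q-value, and an integer score by the authors' caller that was not used. No shift to the transposase cut site is stated, so summits mark fragment pileup.

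Pileup and local background were solved from the ratio and p-value, accepting a misfit up to 0.001 on the −log10 p scale. The scripts were tested on simulated data. Chromosome names match the R64 reference, and no nuclear peak extends past a chromosome end. Each gene took the strongest peak overlapping its region. Levels of regions with a peak in all 8 libraries were fitted with limma 3.58.1 (R 4.3.3) on log2 fold enrichment with locus and context as terms, two-sided, with a threshold of 0.05. The study states no test for native genes. p-values count clones as replicates. Words were searched on both strands. Python 3.11.15, NumPy 2.4.6, SciPy 1.17.1 and matplotlib 3.10.9 were used.

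The genes and lists were chosen with earlier results of these data known. All 10 genes are named, with their upstream neighbours, the 3 highest genes of each list with a peak in all 8 libraries and the 3 regions with the smallest p in each contrast, except that some results are not reported here. Same-numbered libraries were checked for pairing. Alternatives were a shorter region of 500 bp, summits inside the region, intergenic parts only, a −log10 q limit of 5 or 10, pileup in place of fold, the peak nearest the median summit, each library left out and a replicate block.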

Additional observations from a re-analysis of the deposited data

Results flagged for a closer look

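In the 4 episomal libraries the *CLN3* summit of *HPRT1* episome 2 stood apart from the others, at −796 against −918 to −925. The gap to the nearest was 0.946 of the range of the 4 values, above the critical value for 4 samples. Of 22 groups of 4 tested in this way, 1 was past that value, and chance alone takes about 1 in 20.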

How the results depend on the processing

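None of the genes tested was called in either contrast under any alternative, but these tested only 0 to 6 of the 10, and 3 in most of them. The number of regions called for the context, 4, was 2 with 500 bp upstream, 0 with peaks limited to a −log10 q of 5 or 10, 28 with pileup in place of fold and 11 with the replicate block. Without 1 library it was 0 to 10: 0 without *HPRT1* episome 2, *HPRT1* integrated 1 or *HPRT1R* episome 2, 10 without *HPRT1* episome 1 and 9 without *HPRT1R* integrated 2. The number called for the locus, 0, was 1 with that limit at 5, 12 at 10 (of 53 regions) and 1 with the replicate block. Without 1 library it was 0 to 4, with 4 without *HPRT1* integrated 2. Same-numbered libraries did not deviate together across regions (correlations −0.06 to 0.05 over 6 pairs). A correlation leaves out a shift common to all regions, so it cannot show whether same-numbered clones were handled together.

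The number of the 10 genes with a peak in all 8 libraries, 3, was 1 with the limit at 5 and 0 at 10, which leave fewer peaks. The mean number with a peak per library, 7.62, was 4.62 with 500 bp upstream, 5.12 at 5 and 1.12 at 10. The number of genes with peaks in every library of 1 context and in 0 of the other, 7, was 12 to 26 without 1 library. Leaving out a library makes this rule easier to meet, so that count could only stay or rise. The locus difference of *PCL1*, near 0, ranged from −0.067 to 0.083 without 1 library and was below 0 without *HPRT1* episome 2 (−0.066), *HPRT1* integrated 1 (−0.012), *HPRT1R* episome 1 or *HPRT1R* integrated 2 (−0.030). That of *CLN1* ranged from −0.016 (without *HPRT1* episome 2) to 0.34. Of the other values, 420 kept their direction and side and 22 moved. With 500 bp upstream, the libraries with a peak fell from 8 to 2 for *CLN3* and from 7 to 0 for *CLB2*. They also fell from 5 to 0 for *SWI4*, 5 to 2 for *CLB6* and 7 to 4 for *CLB1*. Those of *CLN1*, *CLN2*, *PCL1* and *CLB5* stayed the same. With the limit at 5, *CLN2* fell from 6 to 0, while *CLN3* kept 8 and *CLB2* kept 7. The cause was not tested. Fragments per summit, 16 to 47 for these genes, limit the precision of every level.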
